A study of Mus musculus with 5 samples.

Results

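5C (chromosome conformation capture carbon copy) reports how often HindIII restriction fragments of cross-linked chromatin were ligated to one another, and each fragment end is read by either a forward or a reverse primer. The contacts described here join the Rbm33 side of mouse chromosome 5 to the Shh side. A primer pair was a member when the midpoint of 1 fragment lay at 28597087 to 28765086 and the midpoint of the other at 28765087 to 29045086 (mm9), and the base between these spans is called the limit. This gave 925 of the 33306 primer pairs of the series, and of the 31328 that lie within the Shh region. They join 37 assayed fragments on the Rbm33 side (18 with a forward and 19 with a reverse primer) to 50 on the Shh side (25 of each), so each fragment is shared by many pairs and the pairs are not independent. The members were chosen by position and not by their reads. All libraries were made from CD1 mouse embryos at E11.5, and the labels name no transgene or treatment in any group. Limb was 2 libraries of pooled limb buds, which the study describes as biological replicates, body was 1 library of embryonic bodies, and head was 1 sample of neural and cranio-facial tissue sequenced as 2 technical libraries, which were summed. The limb buds were used whole, so the cells that express Shh in the posterior margin were only a part of each limb sample. Contact data hold no marker genes with which to check the tissue labels.

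Chromosomes fold into topologically associating domains, within which sequences contact each other more often than sequences in the neighbouring domain at the same distance. Domain boundaries often hold sites for CTCF, a zinc finger protein that stops the loop-extruding cohesin complex in an orientation-dependent way. Shh encodes a secreted morphogen that patterns the limb and the neural tube, and many of its known enhancers, among them the limb enhancer ZRS, lie upstream of the gene on the Shh side of the limit, while others lie within the gene. Rbm33 encodes an RNA-binding protein and is the next gene beyond the 3′ end of Shh.

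In the annotation of the same build (GENCODE, NCBIM37), Rbm33 lies at chr5:28643661-28745784 on the plus strand and Shh at chr5:28783355-28793641 on the minus strand, so the 3′ ends of both genes face the limit. The Shh side also holds the long non-coding RNA genes 9530036O11Rik and Gm17493 and the protein-coding gene model Gm10290. The span between Rbm33 and Shh was covered by the fragments on which the results below turn. Their HindIII junctions are shown first, on the plus strand of mm9, 5′ to 3′, with the HindIII site in capitals. The first is the junction across which crossing was lowest in every sample, the next ones are the outer ends of the 2 fragments that meet there, and the last is the Shh-side end of the fragment that holds the 3′ end of Rbm33, at which crossing dropped most.
Junction of the lowest crossing, chr5:28780524-28780603: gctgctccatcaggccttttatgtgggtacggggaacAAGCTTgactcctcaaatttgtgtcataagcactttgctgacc
Rbm33-side end of its left fragment, chr5:28770657-28770736: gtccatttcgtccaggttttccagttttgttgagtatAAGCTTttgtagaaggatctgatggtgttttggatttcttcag
Far end of its right fragment, chr5:28782595-28782674: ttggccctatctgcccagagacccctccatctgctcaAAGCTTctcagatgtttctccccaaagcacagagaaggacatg
Shh-side end of the fragment with the 3′ end of Rbm33, chr5:28748006-28748085: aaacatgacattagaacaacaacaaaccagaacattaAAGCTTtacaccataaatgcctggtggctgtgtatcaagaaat

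The assayed fragments were also searched on both strands for the core letters of the CTCF motif, CCANNAGNNGGC, where N is any base. This was the single motif searched, and 8 of the 87 member fragments held it (9.20%, with a median fragment length of 2647 bp), against 42 of all 354 assayed fragments of the Shh region (11.9%, with a median length of 2427 bp). Both fragments that meet at the junction of the lowest crossing held 1 match each, on opposite strands. In the whole sequence of the 448-kb span, assayed or not, there were 14 matches (31.2 per Mb), against 45.0 per Mb over the Shh region. A match is a description of the letters and not a binding site. The 8 matches are shown 5′ to 3′ on the strand of the match, with the core in capitals, because they are the positions in the member fragments that a reader would set against the profile of crossing.
Rbm33 side, chr5:28612097-28612148, plus strand: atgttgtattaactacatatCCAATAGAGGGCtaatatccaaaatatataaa
Rbm33 side, chr5:28620708-28620759, plus strand: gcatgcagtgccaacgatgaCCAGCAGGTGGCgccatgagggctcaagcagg
Rbm33 side, chr5:28714916-28714967, minus strand: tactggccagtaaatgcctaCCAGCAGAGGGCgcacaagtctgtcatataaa
Rbm33 side, chr5:28724653-28724704, minus strand: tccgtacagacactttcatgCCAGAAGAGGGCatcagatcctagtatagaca
Shh side, left of the lowest crossing, chr5:28777891-28777942, plus strand: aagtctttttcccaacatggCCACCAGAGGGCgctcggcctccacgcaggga
Shh side, right of the lowest crossing, chr5:28781896-28781947, minus strand: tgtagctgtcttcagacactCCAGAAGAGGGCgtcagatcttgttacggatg
Shh side, chr5:28845780-28845831, minus strand: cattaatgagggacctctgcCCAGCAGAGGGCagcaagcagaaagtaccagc
Shh side, chr5:28946887-28946938, minus strand: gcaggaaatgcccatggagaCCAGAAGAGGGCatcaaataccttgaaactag

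The 5 libraries held 675954 to 1714491 reads. Crossing pairs took 1.08% of the reads in limb replicate 1 (Wilson 95% interval 1.06 to 1.11%), 1.13% in limb replicate 2 (1.12 to 1.15%), 0.863% in body (0.845 to 0.881%) and 1.01% in head (0.997 to 1.02%). Interaction frequency is given below as reads per 1000 reads of the library. Of the 921 crossing pairs at separations of at least 28 kb, 89 had no read in any library, and 30.9 to 48.8% had none in a given sample. A count of 0 on 1 pair allows 3 reads, which is an interaction frequency of up to 0.00444 in limb replicate 1 and 0.00152 in head. Intervals and floors cover counting error only, because amplified reads are not independent molecules. Single pairs were noisy: Spearman's rank correlation over the 921 pairs, which share fragments and libraries, was 0.392 between the limb replicates and 0.127 between the 2 technical head libraries. In the Shh region, 8 pairs were isolated contacts, that is, pairs with 100 reads or more that exceeded the pairs of the neighbouring primers 20 times or more in 2 libraries or more. None was a member and 1 lay within each side. They took 12.7% and 7.40% of the reads of the limb libraries, 5.33% and 16.2% of those of the head libraries and 0.134% of those of body, and were left out of all means.

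The first question was how often fragments contacted each other across the limit compared with equally distant fragments that lie on the same side of it. Crossing pairs at 28 kb or more were set against pairs of the same 14-kb separation bin lying wholly within the 448 kb on the Rbm33 side (1980 pairs at all separations) or wholly within the 448 kb on the Shh side (2025 pairs). Both sides were given equal weight, and a crossing ratio of 1 would mean that the limit made no difference. The limb replicates had ratios of 0.476 and 0.492, body had 0.367 and head had 0.439. All 4 samples thus lay well below 1, with about 2.06 times fewer reads across the limit than within the sides in limb, 2.72 times fewer in body and 2.28 times fewer in head. The exact two-sided sign-flip permutation test of the 4 log2 ratios gave p = 0.125, the smallest p that 4 samples allow, so this design cannot reach 0.05. As interaction frequency, crossing pairs had a mean of 0.0105 and 0.0113 for the limb replicates, 0.00750 for body and 0.0101 for head. Pairs of the same separations had 0.0203 to 0.0227 on the Rbm33 side and 0.0206 to 0.0233 on the Shh side.

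Either side gave the same picture when used alone. Against the Rbm33 side the ratio was 0.497 ± 0.00616 (SD, n = 2) for limb, 0.370 for body and 0.444 for head. Against the Shh side it was 0.472 ± 0.0157 (SD, n = 2) in limb, against 0.364 in body and 0.434 in head. The loss also showed in the share of pairs without a read, which is not weighted towards strong contacts. In limb replicate 1, 48.8% of crossing pairs were unread, against 34.5% of Rbm33-side pairs and 21.7% of Shh-side pairs at the same separations. In limb replicate 2 these shares were 36.4%, 31.2% and 16.2%. In body they were 30.9%, 22.2% and 8.58%, and in head 41.8%, 32.1% and 15.9%. Unread pairs were thus most frequent among crossing pairs in all 4 samples. These shares were not corrected for fragments that were hardly read in any direction.

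Among tissues, body had the lowest ratio. It lay below both limb replicates, which had a mean of 0.484 ± 0.0112 (SD, n = 2), by more than their spread, while body and head are 1 sample each and no test between tissues was made. The 2 technical head libraries gave 0.420 and 0.469, a wider gap than that between the limb replicates. Background reads differed between the libraries. Primer pairs that join the Shh region to the Usp22 region on another chromosome (1948 pairs, capped at their 99th percentile) had a mean interaction frequency of 0.000488 and 0.000419 in limb and 0.000280 in body, while the head libraries had 0.000616 and 0.00313. This background was 3.72 to 4.63% of the crossing mean in limb, 3.74% in body and 5.60% in head library 1, but 34.6% in head library 2. With it taken off every pair, an alternative that was added once the data had been seen, the ratio became 0.465 and 0.483 for limb, 0.358 for body and 0.391 for head. The order of tissues was the same with this capped background taken off, but head library 2 alone then had 0.366, close to body. Without the cap, the background of head library 2 had a mean of 0.0121, above its crossing mean of 0.00905. The most-read of these background pairs had 14700 reads. Taking off the uncapped background was not tested. The order did change with the isolated contacts. With them kept, the ratio was 0.242 and 0.350 in limb, against 0.364 in body and 0.266 in head, so body was no longer the lowest. With medians over pairs, limb replicate 1 (0.113) and head (0.127) lay below body (0.331), and limb replicate 2 lay at 0.410. In 11 of the 13 ways of computing the ratio, body was below head and head below both limb replicates, and in all 13 every sample was below 1. These ways share most of their reads, and the place of head below limb did not hold in each head library. Head library 2 alone lay above limb replicate 1 with balanced reads (0.544 against 0.505) and with the limit moved by 1 window (0.474 against 0.463). With the limit moved by 2 windows it lay above both limb replicates (0.495 against 0.490 and 0.481).

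**Figure D1:**
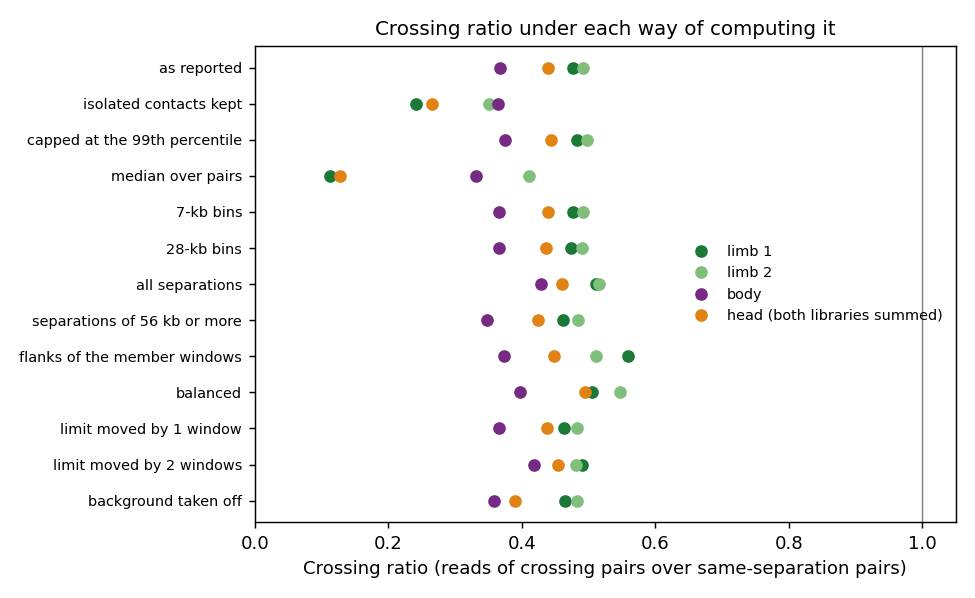
Crossing ratio (horizontal axis, reads of crossing pairs over reads of same-separation pairs within the sides) of the 4 samples under each way of computing it, 1 point a sample. All points lie below 1, marked by a vertical line, and body (purple) is the leftmost point except with isolated contacts kept and with medians over pairs.

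The crossing ratio was below 1 in every band of separation, also against either side alone. At 28 to 56 kb (22 crossing pairs), the ratio was 0.653 ± 0.0616 (SD, n = 2) for limb, 0.594 for body and 0.645 for head. At 56 to 112 kb (80 pairs) it was 0.539 ± 0.00623 in limb, against 0.379 in body and 0.413 in head. At 112 to 168 kb it was 0.546 ± 0.0194 for limb, 0.436 for body and 0.549 for head. With both sides together, the nearest pairs had the highest ratio of the bands in all 4 samples, but in head library 2 alone it was 0.588 for them, against 0.659 at 112 to 168 kb. At 168 to 224 kb the limb ratio was 0.490 ± 0.0226, with 0.373 in body and 0.370 in head, and at 224 to 280 kb it was 0.412 ± 0.124, with 0.305 in body and 0.382 in head. At 280 to 336 kb limb had 0.370 ± 0.0368, body 0.292 and head 0.401. In the widest band, 336 to 448 kb, limb had 0.501 ± 0.0617, body 0.276 and head 0.425. The sides differed in this widest band. Against the Rbm33 side alone the ratio there was 0.874 and 0.635 in limb, above the 0.649 and 0.566 of the nearest pairs, and in body it was 0.404, against 0.290 at 280 to 336 kb. Against the Shh side alone it was 0.395 and 0.357 in limb and 0.209 in body. Head had 0.594 against the Rbm33 side and 0.331 against the Shh side. Body was thus the lowest sample in this band against either side, but only against the Shh side was this the lowest band of body. The head libraries differed by up to 0.567 against 0.302 at 280 to 336 kb.

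**Figure D2:**
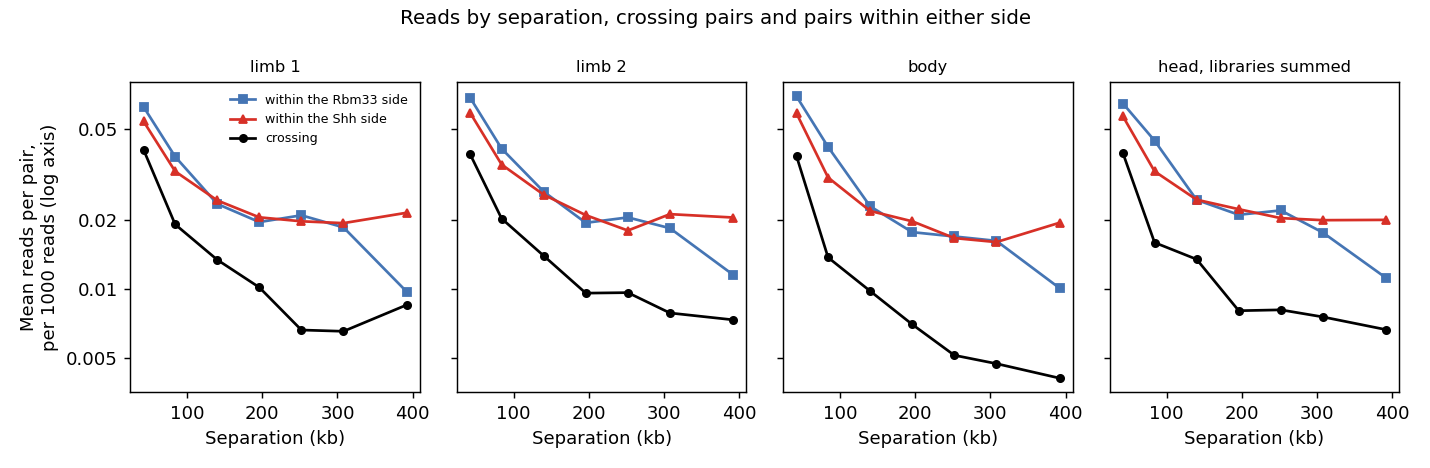
Mean reads per pair per 1000 reads (vertical log axis) by separation (horizontal axis, kb) for crossing pairs (black circles), pairs within the Rbm33 side (blue squares) and pairs within the Shh side (red triangles), 1 panel a sample. The black line lies below both others at every separation in all 4 samples.

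To find where along the fragments contacts stopped, a cut was placed between every pair of neighbouring assayed fragments, and the pairs that joined up to 140 kb on its left to up to 140 kb on its right were summed. Their reads were divided by those expected from the mean of all Shh-region pairs of the same separation. Crossing was lowest at the same cut in all 4 samples and in both head libraries, between the fragments chr5:28770697-28780563 and chr5:28780564-28782634. This junction lies between the limit and the 3′ end of Shh. The log2 observed over expected there was -1.07 and -1.17 for the limb replicates, -1.46 for body and -1.33 for head, which is 0.475, 0.445, 0.364 and 0.397 of the expected reads. It ranked lowest of 305 cuts over the Shh region in each of them. Neighbouring cuts share most of their pairs, and the minimum was a broad floor in limb and head. The cuts within 0.2 log2 of the lowest reached from chr5:28748045 to chr5:28805807 in limb replicate 1 (57.8 kb), to chr5:28806894 in limb replicate 2 (58.8 kb), and from chr5:28750565 to chr5:28806894 in head (56.3 kb). In body they reached only from chr5:28767078 to chr5:28793709 (26.6 kb), that is, from the intergenic sequence just right of the limit to the 5′ end of Shh. The floor thus spanned the interval from just beyond the 3′ end of Rbm33 to beyond Shh in limb, and the Shh gene lay within it in all samples. Under other settings the lowest cut of a sample lay 1.99 to 28.6 kb from the limit on the Shh side, except in limb replicate 1 with squares of 3 windows of 28 kb, where it lay at the end of Rbm33 (-17.0 kb) while that of limb replicate 2 lay at 24.4 kb.

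The sides of this floor were unequal. On the Rbm33 side the profile fell over several fragments. From the cut after chr5:28698428 to the cut after chr5:28748045, the log2 observed over expected went from -0.26 to -1.04 and from -0.28 to -1.09 in the limb replicates, from 0.03 to -1.12 in body and from -0.13 to -1.13 in head. The largest single drop in all 4 samples was at the fragment chr5:28743467-28748045, which holds the 3′ end of Rbm33: moving the cut from its left to its right changed the log2 observed over expected by -0.27 and -0.34 in limb, against -0.37 in body and -0.26 in head. These steps were computed only on reads not corrected for differences between primers, and a strongly read fragment can move the profile more. Whether the place of the largest drop depended on how well this fragment was read was not tested. In limb replicate 2, body and head the next largest drop was at its left neighbour, chr5:28738818-28743466, which holds the start of the last Rbm33 exon, with -0.12 and -0.14 for limb, -0.19 for body and -0.17 for head. On the Shh side the profile returned over a longer distance. The largest single rise in limb replicates and body was at chr5:28821671-28827662, within 9530036O11Rik, with 0.23 and 0.25 in limb and 0.32 in body. In head it was 0.20 there and 0.23 at chr5:28870608-28876511. The assayed fragments on the Shh side leave a step of up to 28.1 kb between midpoints, so the position of the return is known less finely than that of the drop.

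**Figure D3:**
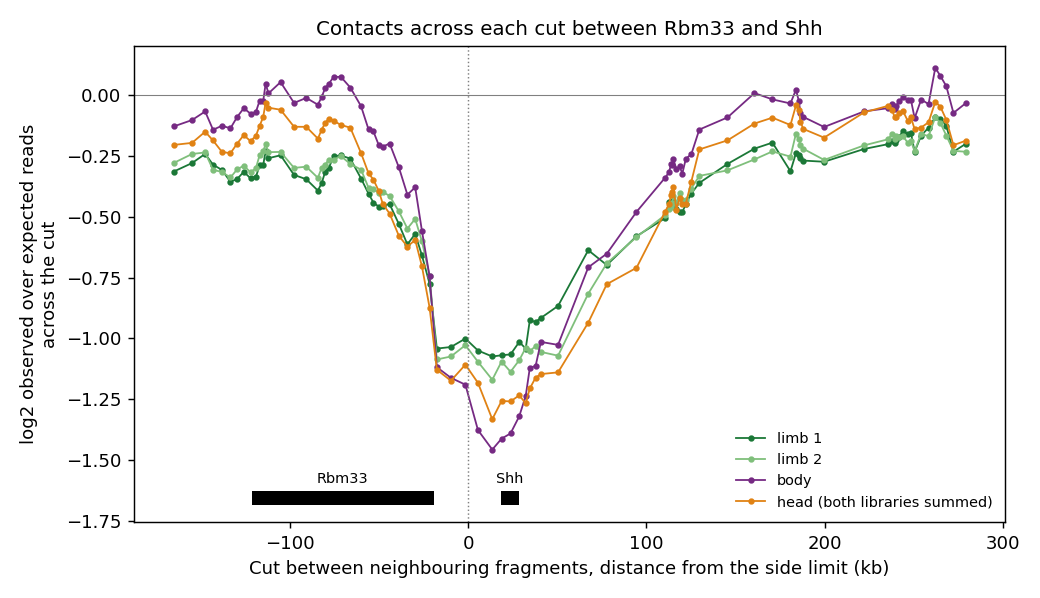
log2 observed over expected reads across each cut (vertical axis) by distance of the cut from the limit (horizontal axis, kb, taken midway between the midpoints of the neighbouring fragments; dotted line at 0), 1 line a sample, with Rbm33 and Shh drawn as black bars. All 4 lines fall towards the 3′ end of Rbm33, are lowest between the limit and Shh, and return more slowly on the right.

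Each fragment was then asked whether it contacted partners across the limit less often than partners on its own side. The measure was the log2 of observed over expected with partners across over that with partners on the own side, for partners at 28 to 280 kb. Partners were taken by this distance alone, also beyond the member spans. Shh-side fragments near the limit thus counted partners left of chr5:28597087 as crossing, and those pairs are not members. The crossing reads of single Shh-side fragments given below include them. It could be computed for 70 of the 87 fragments, those with at least 5 pairs and some reads in each direction in every sample. The fragment chr5:28638809-28643392 had enough pairs but was hardly read in either direction and was left out. It had 0 crossing reads in all 4 samples. With its own side (33 pairs) it had 4 and 1 reads in limb, 0 in body and 4 in head. It was below 0 in 66 and 67 fragments of the limb replicates, 67 of body and 63 of head, with medians of -0.85, -0.88, -1.26 and -1.02. Head library 1 alone gave 64 of 70 and head library 2 alone 59 of 69. It was below 0 in all 4 samples for 58 fragments and above 0 in all 4 for none. On the Rbm33 side 33 of 36 scored fragments were below 0 in all 4 samples, and on the Shh side 25 of 34. The medians of the Rbm33-side fragments were -0.84 and -0.97 in limb, against -1.35 in body and -1.23 in head, and those of the Shh-side fragments -0.90 and -0.69, -1.19 and -0.80. Single fragments varied widely, from -3.23 to 1.04 over fragments and samples.

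**Figure D4:**
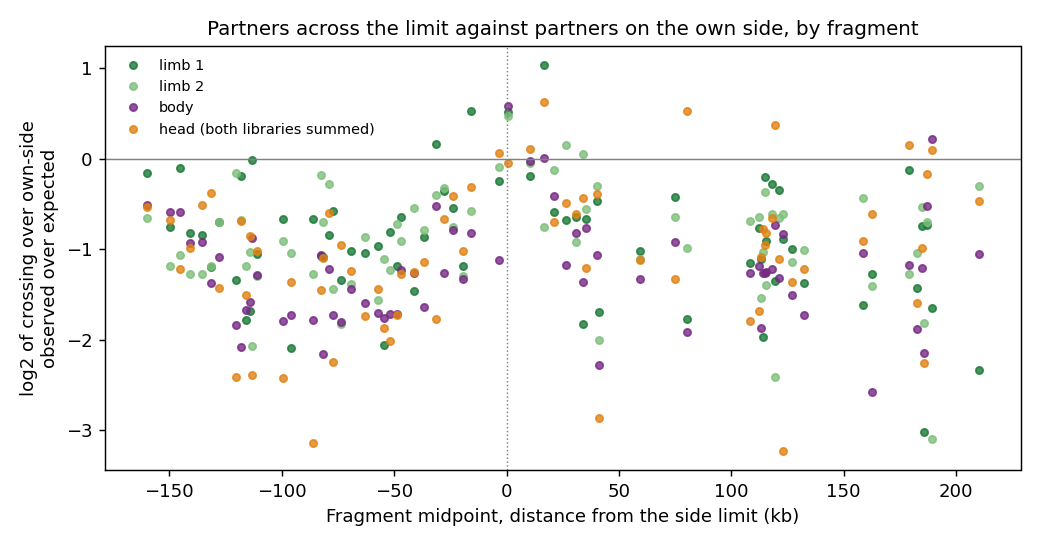
log2 of observed over expected with partners across the limit over that with partners on the own side (vertical axis), for 70 fragments by distance of their midpoint from the limit (horizontal axis, kb), 1 point a fragment and sample. Most points lie below 0, and the 2 fragments above 0 in 3 samples lie just right of the limit.

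Of the 12 scored fragments that were above 0 in any sample, 2 were so in 3 samples, and these lay 0.442 and 16.5 kb right of the limit. One more, chr5:28954090-28954407 at 189 kb, was above 0 in body (0.22) and head (0.09), and 9 were above 0 in 1 sample each, at 3.55 to 179 kb from the limit. The first Shh-side fragment, chr5:28763979-28767078, is intergenic and starts where the last Rbm33-side fragment ends. It contacted the Rbm33 side more than its own side in limb and body, with 0.52 and 0.47 in limb and 0.58 in body on the log2 scale, and about equally in head, with -0.04. Its crossing reads were 754 and 1897 for limb, 931 for body and 1937 for head, which is 1.13, 1.09, 1.06 and 1.01 of the expected reads. Its contacts were therefore at the level expected from separation alone on the Rbm33 side, while those with its own side were at 0.792, 0.783, 0.710 and 1.04 of the expected reads. The next fragment, chr5:28770697-28780563, which carries the plus-strand CTCF core match and ends at the junction of the lowest crossing, had -0.18 and -0.05 in limb, against -0.03 in body and 0.11 in head. Its crossing reads were 0.971, 0.851, 1.33 and 1.00 of the expected reads. With the isolated contacts kept, its mean was 0.41 in limb. These 2 fragments lie on the Shh side of the limit by position, but to the left of the lowest cut.

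Beyond that cut, the fragment with the minus-strand match, chr5:28780564-28782634, was read rarely in both directions. Its crossing reads were 141 and 127 for limb, 113 for body and 229 for head (0.0764 to 0.225 of the expected reads), and its own-side reads were 44, 137, 70 and 95 (0.0821 to 0.137 of the expected reads). Its log2 values, 1.04 and -0.75 in limb, against 0.01 in body and 0.62 in head, disagreed between the limb replicates. With pairs closer than 28 kb included, it was -1.52 as the mean of limb, -2.44 in body and -2.31 in head. Whether few reads in both directions come from the primer or from the fragment was not tested. The fragment chr5:28782635-28789524, with the second and the last exon of Shh, had -0.59 and -0.13 for limb, -0.41 for body and -0.70 for head. Its crossing reads were 402 and 1353 in limb, against 684 in body and 945 in head, at 0.641, 0.815, 0.835 and 0.519 of the expected reads. The fragment chr5:28789547-28793709, with the first exon of Shh and its start site, had -0.67 and 0.15 for limb, -1.17 for body and -0.49 for head. It was also poorly read in both directions, at 0.0594 to 0.238 of the expected reads across the limit and 0.133 to 0.380 on its own side. The body of the Shh gene thus favoured its own side in all 4 samples, and its start site in 3 of 4. With pairs closer than 28 kb included, the body of the gene turned the other way, to 0.27 as the mean of limb, 0.90 in body and 0.014 in head.

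On the Rbm33 side the fragment with the 3′ end of Rbm33, chr5:28743467-28748045, was among those with many contacts. It crossed at 1.03 and 0.943 of the expected reads in limb, against 0.973 in body and 0.944 in head, with 462 and 1107 reads for limb, 560 for body and 1212 for head. With its own side it was at 2.35, 2.31, 2.44 and 1.91 of the expected reads. Its log2 preference was therefore -1.18 and -1.29 in limb, against -1.33 in body and -1.02 in head, although it crossed as often as a typical Shh-region pair of the same separation. Its left neighbour, chr5:28738818-28743466, was similar, at 0.986, 0.916, 0.945 and 1.09 across and 1.44, 1.55, 1.63 and 1.45 on the own side. Other Rbm33-side fragments exceeded the fragment with the 3′ end of Rbm33 in some samples. In body, chr5:28611343-28619284 had 1.74 across and 2.62 on the own side. In limb replicate 2, chr5:28698429-28705774 crossed at 1.13, and in head it had 1.97 on the own side. The 2 intergenic fragments between Rbm33 and the limit, chr5:28748046-28750565 and chr5:28759100-28763978, were read rarely on both sides. The first crossed at 0.101 to 0.246 of the expected reads over the 4 samples and the second at 0.238 to 0.382. With their own side they had 0.151 to 0.249 and 0.281 to 0.616.

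Pairs closer than 28 kb were kept out of these measures, and 4 crossing pairs were that close. The 2 fragments nearest the limit, chr5:28759100-28763978 and chr5:28763979-28767078, touch just left of it, and the second spans it. They gave 415 and 896 reads for limb, 1367 for body and 864 for head at a separation of 3.99 kb. The pair of chr5:28743467-28748045 with chr5:28763979-28767078, at 19.8 kb, gave 274 and 527 in limb, against 315 in body and 514 in head. At nearly the same separation of 20.1 kb, the pair of chr5:28759100-28763978 with chr5:28780564-28782634 gave 1 and 5 for limb, 9 for body and 6 for head. That pair spans the lowest cut, whereas the former does not, and each of its fragments was poorly read in general.

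Grouped into blocks by the annotation, crossing was not uniform. The 3 fragments between the limit and the 3′ end of Shh had 0.704 ± 0.0779 (SD, n = 2) of the expected reads with the whole Rbm33 side in limb, against 0.806 in body and 0.739 in head. The 2 fragments of the Shh gene had 0.463 ± 0.0596 for limb, 0.437 for body and 0.395 for head. The 5 fragments from the 5′ end of Shh to 56 kb from the limit had 0.476 ± 0.0120 in limb, against 0.356 in body and 0.478 in head. The block level was thus lower for the gene than for the intergenic fragments in all 3 tissues. It stayed near the lower level further out, with 0.460 ± 0.0120 for limb, 0.413 for body and 0.393 for head at 56 to 140 kb. At 140 to 280 kb it was 0.480 ± 0.0241, 0.394 and 0.461. The gene block and the intergenic block each include a poorly read fragment, chr5:28789547-28793709 and chr5:28780564-28782634. The other gene fragment, chr5:28782635-28789524, crossed at 0.641 and 0.815 of the expected reads in limb, 0.835 in body and 0.519 in head. Those values also count partners beyond the member spans. Whether the lower level of the gene block depended on its poorly read fragment was not tested.

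From the other side, the 8 fragments upstream of Rbm33 had 0.574 ± 0.0547 in limb, against 0.671 in body and 0.606 in head. The first part of Rbm33 (14 fragments, to the middle of the gene) had 0.414 ± 0.00863, 0.304 and 0.390, and the last part (13 fragments) 0.576 ± 0.0415, 0.508 and 0.504. The lowest values, 0.221 ± 0.0256 for limb, 0.208 for body and 0.276 for head, belonged to the 2 poorly read fragments between Rbm33 and the limit. The first part of Rbm33 was thus lower than the blocks upstream of Rbm33 and in its last part in all 3 tissues. It also holds fragments that were poorly read on their own side. Among them were chr5:28681874-28682959 (0.173 to 0.258 of the expected reads) and chr5:28685148-28687114 (0.201 to 0.244). Whether the lower level of this block depended on them was not tested. The highest block joined the sequence upstream of Rbm33 to the interval between the limit and the 3′ end of Shh, at a mean separation of 149 kb (12 pairs). It had 1.23 and 0.878 of the expected reads in the limb replicates, 1.36 in body and 0.974 in head. The same upstream fragments had 0.390 and 0.579 with the Shh gene in limb, against 0.941 in body and 0.823 in head, but the head value rested on library 2 (1.45 against 0.411 in library 1).

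**Figure D5:**
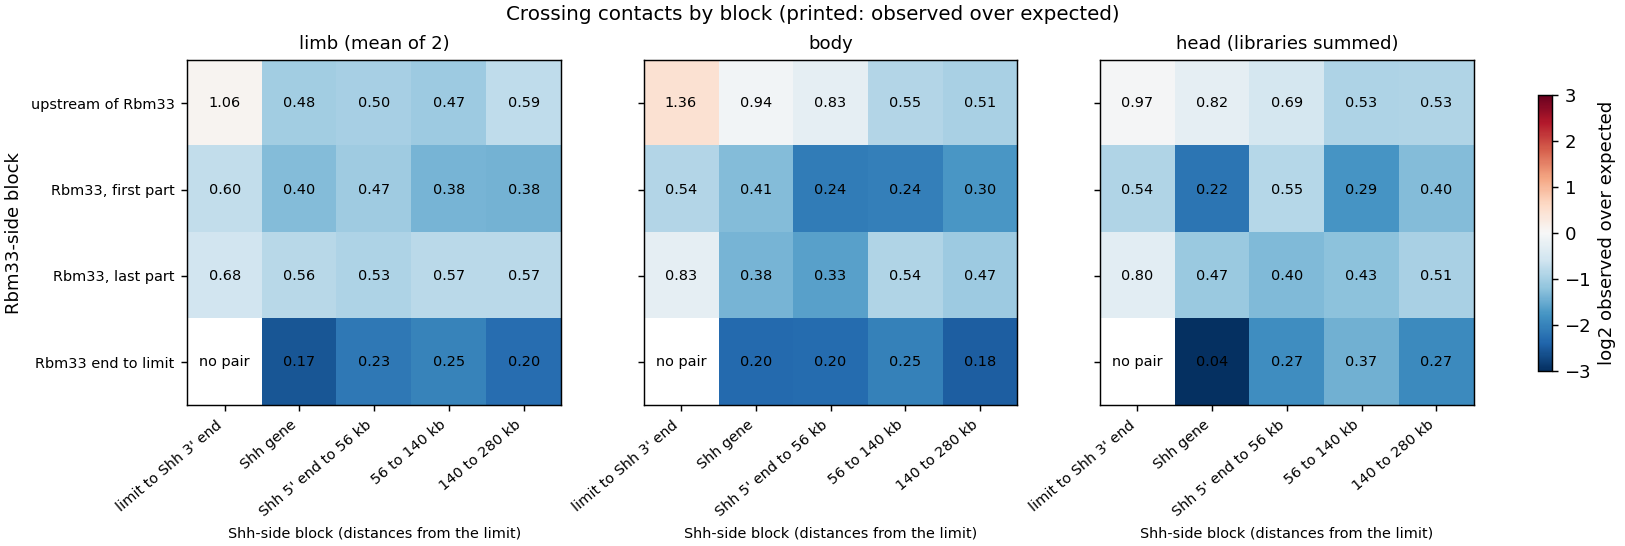
Observed over expected reads of crossing pairs in blocks of the Rbm33 side (vertical axis) and the Shh side (horizontal axis), for limb (mean of 2 replicates), body and head, with colour on a log2 scale and values printed. The left column, between the limit and the 3′ end of Shh, holds no pair in the bottom row. In the other rows it is the highest, except for the first part of Rbm33 in head. In limb the bottom row is the lowest of every column in which it holds pairs.

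Few single pairs crossed the limit above expectation. Of the 921 crossing pairs, 18.3% and 17.7% exceeded the expected reads in the limb replicates, 13.6% did in body and 16.2% in head. Among all 13325 Shh-region pairs at the same range of separations, 34.1 to 36.8% did. Only the range was matched, and not the number of pairs at each separation. Reads above 2 times the expected were found in 5.21% and 3.80% of crossing pairs in limb, 2.06% in body and 3.69% in head, against 15.4 to 16.4% of all pairs. Of the crossing pairs, 14 (1.52%) exceeded the expected reads in all 4 samples. The matching share of all Shh-region pairs was not counted, so nothing is read from this number. In 1 crossing pair (0.109%) the reads were more than 2 times the expected in all 4 samples. That pair joined the fragment with the 3′ end of Rbm33, chr5:28743467-28748045, to chr5:29032469-29038542 in 9530036O11Rik, at a separation of 290 kb. It had 28 and 71 reads for limb, 33 for body and 107 for head, of which 80 and 27 in the 2 head libraries. This was 2.69 and 2.52 times the expected reads in limb, against 2.65 in body and 3.42 in head.

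The other pairs named by the same rule, the 10 with the highest lowest value and at least 10 reads in each sample, were weaker. The next was chr5:28635857-28638808 with chr5:28799299-28801546 at 163 kb, with 20 and 63 reads for limb, 28 for body and 58 for head, and 1.34 to 1.52 times the expected reads. The third was chr5:28652424-28656081 in Rbm33 with chr5:28770697-28780563, the fragment left of the lowest cut, at 121 kb, with 34 and 64 reads in limb, against 37 in body and 146 in head. It had 1.29 to 2.66 times the expected reads. Shh itself was in 2 of the 10 pairs, both with the fragment that holds its second and last exon. With chr5:28738818-28743466 at the end of Rbm33 (44.9 kb), this fragment had 60 and 283 reads for limb, 95 for body and 147 for head, at 1.19, 2.54, 1.59 and 1.17 times the expected reads. With chr5:28631581-28635856 upstream of Rbm33 (152 kb) it had 18 and 57 reads in limb, against 36 in body and 123 in head, at 1.13 to 2.47 times the expected reads. Of the 5 remaining pairs, 3 had reads in only 1 of the 2 head libraries, so their head value was not repeated. They were chr5:28620320-28627997 with chr5:28945937-28949569 (0 and 43 reads), chr5:28652424-28656081 with chr5:28895176-28899338 (0 and 51 reads), and chr5:28620320-28627997 with chr5:28821671-28827662 (64 and 0 reads).

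At the other extreme were the 89 crossing pairs without a read. The one with the most expected reads joined chr5:28731809-28735435 in Rbm33 to chr5:28843290-28847606 at 112 kb, where 22.7 and 61.0 reads were expected for limb, 29.3 for body and 66.3 for head. The Shh-side fragment of this pair was also in the unread pair with chr5:28710086-28710865, and chr5:28805808-28806894 was in the unread pairs with chr5:28682960-28684009 and chr5:28687115-28688407. The fifth unread pair joined chr5:28748046-28750565, next to the end of Rbm33, to chr5:28883822-28884803. At this depth an unread pair allows up to 3 reads, and a primer pair that does not amplify gives the same count.

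Whether single crossing contacts differed between limb and non-limb tissue was tested with edgeR's quasi-likelihood test over all primer pairs of the series, limb replicates against body and head. Of 17531 primer pairs that passed the filter on low counts, 0 (0%) were called at an adjusted p of 0.05 with edgeR and 621 (3.54%) had an unadjusted p under 0.05. The filter kept 476 of the 925 crossing pairs. Of these, 0 were called with edgeR, 25 (5.25%) had an unadjusted p under 0.05, and 13 of the 25 were higher in limb. DESeq2 called 1 pair of the series (0.0057%), which was not a crossing pair, and had 30 crossing pairs with an unadjusted p under 0.05. Crossing pairs share fragments, and nothing is read from their 5.25% against the 3.54% of all pairs. The spread between samples was large (a common biological coefficient of variation of 1.06), and a test of 2 against 2 samples at this spread does not show that tissues had equal contacts. Reads summed over pairs of 28-kb windows had a smaller coefficient, 0.387. There edgeR called 0 of 60 crossing window pairs, and 3 had an unadjusted p under 0.05, against 41 of 1874 window pairs of the Shh region (2.19%). All 3 were higher in limb. The one with the lowest p, named after its values were seen, joined the window starting 140 kb left of the limit, around the start of Rbm33, to that starting 224 kb right of it. It had 316 and 631 reads in limb, against 165 in body and 452 in head, a log2 difference of 0.98 ± 0.34 (SE) and an adjusted p of 0.989 with edgeR.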

How the data were processed

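The authors made 5C libraries of E11.5 limb, body and head and passed Ion PGM reads through a Torrent 5C transformation pipeline on Galaxy. Its version was not given in the sources used here. The authors deposited raw read counts for every combination of forward-primer and reverse-primer HindIII fragments, on mm9. The deposited separation column was not used. Here reads were set against pairs of the same 14-kb separation bin, without 8 isolated contacts (at least 100 reads, 20 times or more the pairs made with the 2 nearest primers to the left and right, in 2 or more libraries, at 84 kb or more). Bins with fewer than 5 pairs were left out. Cuts used 5 windows of 28 kb on either side. Body and head are 1 sample each, so p-values measure the spread between 4 samples. Tests were edgeR 4.0.16 (quasi-likelihood, TMM, filterByExpr, Benjamini-Hochberg) and DESeq2 1.42.0 in R 4.3.3. Other values used Python 3.11.15 with scipy 1.17.1, pandas 2.3.3, numpy 2.4.6 and matplotlib 3.10.9. The crossing ratio, the lowest cut and the edgeR test were tested on simulated data, while the measures of single fragments, blocks and single pairs were not. Sequence and genes were NCBIM37 and its GENCODE annotation.

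Named fragments were the 3 nearest the limit on each side, those with an exon of Shh and those with the last exon of Rbm33. Named pairs were the 10 whose lowest observed over expected was highest, with 10 reads or more in each sample, and 5 unread pairs with the most expected reads. Library depth was 675954 to 1714491 reads. The members, the limits of isolated contacts and the rules were chosen with earlier results of these data known. Alternatives were isolated contacts kept, capped or balanced reads, medians, other bins, squares, separations, flanks and limits, omission of a limb replicate or a head library, and background taken off, the last added after seeing the data.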

Additional observations from a re-analysis of the deposited data

How the results depend on the processing

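The crossing ratio stayed below 1 in every tissue under every alternative. It moved by more than the spread of the limb replicates with isolated contacts kept (limb 0.296, head 0.266), medians over pairs (limb 0.262, body 0.331, head 0.127), all separations (0.514, 0.429, 0.461), separations of 56 kb or more (0.473, 0.349, 0.425), flanks of the member windows (limb 0.536), balanced reads (0.526, 0.398, 0.494), the limit moved by 2 windows (body 0.419, head 0.454) and background taken off (head 0.391). Without limb replicate 1 or 2 it was 0.476 to 0.492, and without head replicate 1 or 2 it was 0.420 to 0.469. The lowest crossing, 15.5 kb from the limit, moved with squares of 3 windows (limb 3.70 kb, the mean of -17.0 kb in replicate 1, on the Rbm33 side, and 24.4 kb in replicate 2; head 24.4 kb), squares of 7 windows (limb 8.73 kb, the mean of 15.5 and 1.99 kb; body and head 24.4 kb), isolated contacts kept (20.0 kb in limb), balanced reads (20.0 kb in limb, 24.4 kb in body) and all separations (28.6 kb in limb and body, 17.5 kb in head). It did not move with any library left out (15.5 to 15.5 kb). The number of crossing pairs called was 0 under all 9 alternatives. Over all pairs of the series, edgeR without a filter called 3.

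The number of fragments that contacted their own side more was 60 to 67 in each sample under 5 alternatives, which, like those of single fragments, were added after seeing the data. For the named fragments, 109 of 153 alternative values stayed within the spread of the limb replicates. This count does not measure stability. Values without 1 limb replicate always lie within that spread. Where the replicates disagreed the spread was wide, as for chr5:28780564-28782634 (SD 1.26), so that even a change of sign could lie within it. Apart from leaving out a limb replicate, the log2 preference changed sign in 22 of the alternative values. With all separations, which adds the nearest neighbours, it did so for chr5:28748046-28750565 (limb 0.70, body 0.47, head 0.82), chr5:28759100-28763978 (limb 1.29, body 1.57), chr5:28763979-28767078 (head 0.29), chr5:28770697-28780563 (body 0.14, head -0.10), chr5:28780564-28782634 (limb -1.52, body -2.44, head -2.31) and chr5:28782635-28789524 of Shh (limb 0.27, body 0.90, head 0.014). With isolated contacts kept it did so for chr5:28748046-28750565 (limb 0.32, head 0.052), chr5:28759100-28763978 (limb 0.084), chr5:28763979-28767078 (head 0.011) and chr5:28770697-28780563 (limb 0.41). With balanced reads it did so for chr5:28759100-28763978 (head -0.026), chr5:28770697-28780563 (limb 0.0026) and chr5:28780564-28782634 (limb -0.036). Without 1 limb replicate it did so for chr5:28748046-28750565 (0.53 without replicate 2), chr5:28780564-28782634 (-0.75 without replicate 1) and chr5:28789547-28793709 (0.15 without replicate 1). The causes were not tested. No paired analysis was possible because the labels give no replicate numbers that limb shares with body or head. Depth limits single pairs, of which 10.4% had at least 10 reads in all 4 samples.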
